A study of Mus musculus with 12 samples.

Results

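Female mouse livers taken at zeitgeber time 22 (ZT22) were compared with female livers taken at zeitgeber time 10 (ZT10). Of the 12 single-cell samples in the series, the 6 from females, each with 1 library, were chosen by their labels, 3 at each time, and they hold 15924 of the 31003 cells. All animals were wild-type 129S6/SvEv mice, without a transgene or treatment in the labels. Their livers were digested with collagenase, and hepatocyte-enriched cells were frozen and thawed before 10x Genomics Chromium v3 libraries were made. Zeitgeber time counts hours from lights on, so ZT10 lies late in the light phase and ZT22 late in the dark phase of a usual schedule. The labels number the replicates and do not say that each came from its own animal, so the p-values below measure the spread between these libraries.

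The liver is one of the most strongly rhythmic organs of the mouse. A transcriptional loop, in which the factors CLOCK and BMAL1 drive their own repressors of the PER and CRY families, runs in its cells and sets the timing of many output genes. Feeding, which falls mainly in the dark phase in mice, adds rhythms in lipid, lipoprotein, bile acid and sugar metabolism. The series asks about a daily cycle of lipoprotein uptake and assembly that differs between the sexes.

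The count table gives its 18326 genes as numbered rows, and no deposited file ties these numbers to gene names. Rows are therefore described as groups, by their level, their change and the cells that hold them, and 4 rows are given by number. The liver label could not be checked against marker genes for the same reason. A count is a unique molecular identifier (UMI), which stands for 1 captured RNA molecule, and levels are counts per 1e6 UMIs (CPM) after TMM scaling.

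The female libraries held between 6677296 and 10964221 UMIs in 1667 to 3860 cells. Median depth per cell was 2925 ± 112 UMIs at ZT22 and 2861 ± 785 at ZT10 (SD, n = 3 each), and the 2 times overlapped in all 7 measures compared. The lowest exact two-sided permutation p of these measures was 0.2, adjusted to 0.7, and 3 libraries against 3 cannot go below 0.1. Between 0 and 5 cell barcodes were shared by any pair of these libraries. Sample names in the metadata start with a code that the headers do not explain. ZT10 replicates 1 and 2 share a code, ZT10 replicate 3 has another, and each ZT22 replicate has its own. No code holds females of both times, so time and whatever the code marks cannot be told apart.

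Cells were grouped into 7 clusters after centring within each library, and these stay unnamed. Clusters 5, 6 and 7, with 920, 781 and 584 cells, were set apart by rows far above their level in all other cells, and clusters 1 to 4 are called the main population. The cells set apart made up 17.8% ± 5.84 of a ZT22 library and 11.8% ± 6.46 of a ZT10 library (SD, n = 3 each, exact permutation p = 0.5). ZT10 replicate 1 differed from the other 5 libraries in the makeup of its main population. It had 57.7% of its cells in cluster 4, against 1.39% to 12.8% elsewhere, and 1.22% in cluster 1, against 29.9% to 32.6%.

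**Figure D1:**
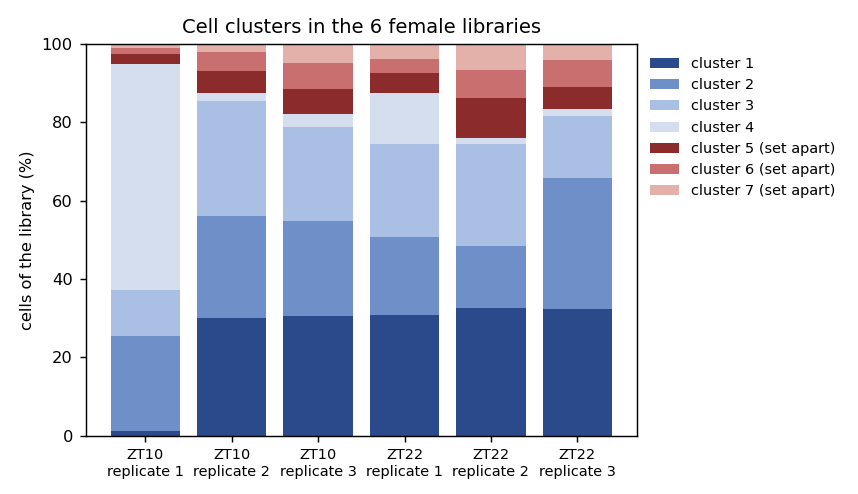
Percent of each female library's cells in 7 clusters, as stacked bars (clusters 5 to 7, in red, were set apart). ZT10 replicate 1 stands out by cluster 4, with 57.7% of its cells, and by few cells in cluster 1, with 1.22%.

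The first question was which rows differ between the times. At ZT22, 294 rows were higher and 290 were lower than at ZT10, with median changes of 1.06 and -0.996 on the log2 scale. These 584 rows passed edgeR's quasi-likelihood test at an adjusted p under 0.05 and are 4.9% of the 11915 rows tested, with 2.47% higher and 2.43% lower. The median log2 fold over all rows tested was 0.0012, a centre that TMM scaling sets near 0. With each cell given the same weight, and limma in place of edgeR, 160 rows were higher and 302 lower at ZT22. In all 584 rows the 3 libraries of one time lay beyond the 3 of the other, which also held in 25.5% of all rows tested.

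The called changes varied in size. Of the called rows, 161 that rose and 144 that fell changed at least 2-fold, which is 42.9% of the 711 tested rows with such a fold. At least 8-fold changes were fitted for 9 called rows that rose and 9 that fell, among 19 tested rows with such a fold. No called row was at 0 in all 3 libraries of a time, so each of these folds rests on counts at both times.

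The share of rows called differed with their level. Among the 1237 rows between 100 and 1000 CPM, 58 rose and 61 fell, which is 9.62%. Between 10 and 100 CPM, 177 rose and 190 fell among 5943 rows (6.18%). Rows under 10 CPM, where counting error is larger, gave 59 and 37 among 4642 (2.07%). Above 1000 CPM, 0 rose and 2 fell among 93 rows (2.15%), which together hold 47.0% of the scaled counts. In so small a band this share rests on few calls, and most of the 13 mitochondrial rows described below lie in it.

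**Figure D2:**
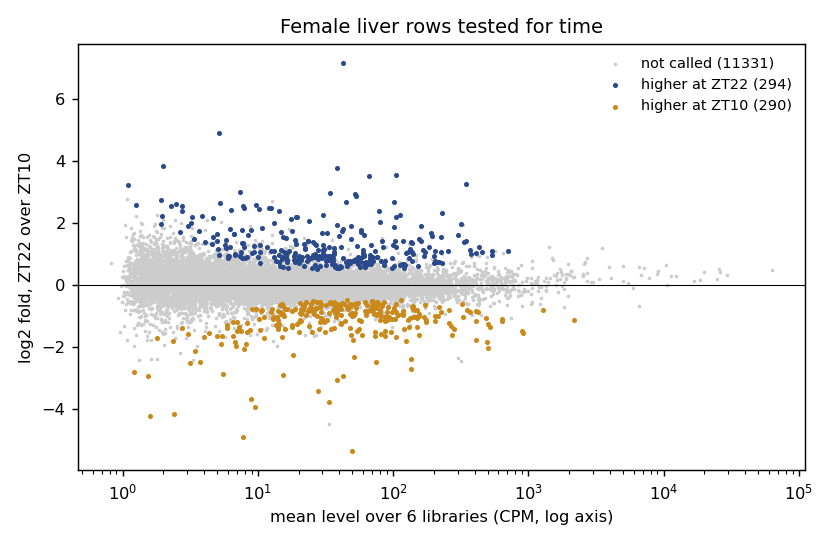
Each point is a row tested, with its mean level over the 6 female libraries (CPM, log axis) and its log2 fold of ZT22 over ZT10. The 294 rows called higher at ZT22 (blue) and the 290 called higher at ZT10 (ochre) lie mainly between 10 and 1000 CPM.

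The called rows held a small part of the RNA counted. Rows that rose took 1.29%, 1.21% and 1.19% of the UMIs in ZT10 replicates 1, 2 and 3, and 2.44%, 2.44% and 2.78% in the ZT22 replicates. Rows that fell took 4.23%, 3.995% and 3.53% at ZT10 and 1.47%, 1.64% and 1.88% at ZT22. These shares come from the comparison that chose the rows and are given as a description. They show that the rows lower at ZT22 were the more abundant group at their peak.

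The rule for rows given by number took called rows with at least 100 CPM in the higher group and no overlap of the 3 and 3 libraries. The 2 largest changes in each direction follow. Their separation and large folds are therefore part of the choice, and the values are given as a description. Row 8134 was counted at 14.3, 21.4 and 13.7 CPM in ZT10 replicates 1, 2 and 3, and at 233, 179 and 166 CPM in the ZT22 replicates. The groups lay far apart, and the 3 values at each time were close to each other. The row rose 11.8-fold, from 16.5 ± 4.26 to 193 ± 35.6 CPM (SD, n = 3 each), a log2 fold of 3.56 ± 0.22 (SE, edgeR adjusted p = 0.00028).

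Row 9897 stood at 10.6, 15.5 and 5.47 CPM in ZT10 replicates 1, 2 and 3, and at 155, 77.1 and 132 CPM in the ZT22 replicates. The lowest ZT22 library, replicate 2, still lay well above the highest at ZT10. Its log2 fold was 3.54 ± 0.38 (SE, edgeR adjusted p = 0.0024).

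Row 11106 was at 114, 129 and 137 CPM in ZT10 replicates 1, 2 and 3, and at 18.0, 22.3 and 28.0 CPM in the ZT22 replicates. All 3 ZT10 libraries were high, including replicate 3 with its own code. The row fell by 2.47 ± 0.18 on the log2 scale (SE, edgeR adjusted p = 0.00066).

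Row 11994 behaved differently within ZT10. Replicates 1 and 2, which share a code, had 264 and 394 CPM, while replicate 3 had 53.4 CPM, near the 32.9, 26.6 and 49.3 CPM of the ZT22 replicates. The groups did not overlap, but the gap between replicate 3 and the highest ZT22 library was far smaller than the spread within ZT10. Its log2 fold was -2.71 ± 0.61 (SE, edgeR adjusted p = 0.041). Without these 2 libraries it was -0.58, with an edgeR adjusted p of 0.37, so the call rests on those libraries. The call was also lost without ZT10 replicate 1, ZT10 replicate 2 or any 1 of the ZT22 replicates.

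**Figure D3:**
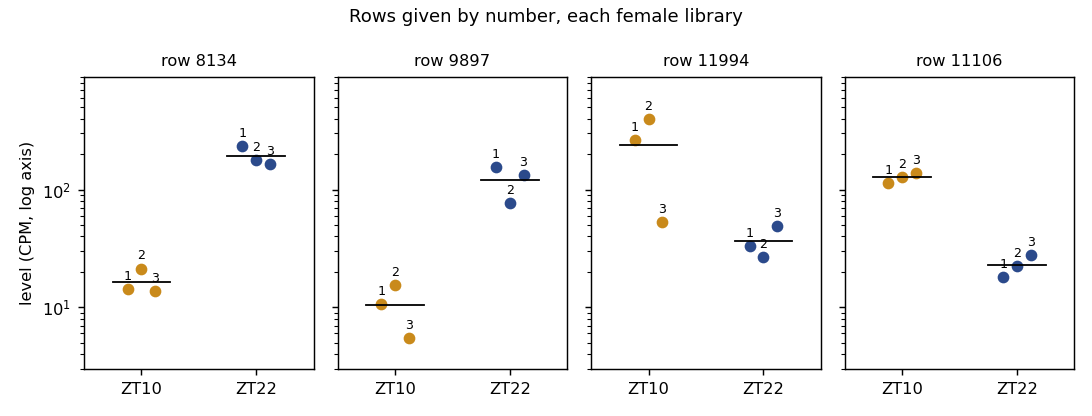
Level of the 4 rows given by number in each female library (CPM, log axis), with replicate numbers beside the points and the group mean as a line. Rows 8134, 9897 and 11106 separate the times in all 6 libraries by wide gaps. For row 11994, ZT10 replicate 3, at 53.4 CPM, sits next to the ZT22 libraries. All 4 rows were chosen for a large fold and no overlap.

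The change of these rows was next followed from libraries to cells. Each cell of the main population was thinned to 1000 UMIs, so that depth could not differ, and 96 shallower cells at ZT10 and 11 at ZT22 were left out. Row 8134 then had a UMI in 18.1% ± 0.73 of the ZT22 cells and 1.75% ± 0.62 of the ZT10 cells (SD over libraries, n = 3 each). Row 9897 was found in 10.5% ± 3.17 and 1.01% ± 0.63 of them. For row 11106 the shares were 2.29% ± 0.34 at ZT22 and 13.0% ± 0.93 at ZT10. Without thinning, the shares averaged 42.9% and 5.79% for row 8134, 29.7% and 3.81% for row 9897, and 7.59% and 34.8% for row 11106. If the counted molecules were spread evenly over the cells, the thinned shares would be 18.3% and 1.83% for row 8134, 10.8% and 1.08% for row 9897, and 2.33% and 12.8% for row 11106. The measured shares lie close to these values. With so few molecules per thinned cell, the 2 would part only if molecules were strongly concentrated, so milder unevenness between cells cannot be seen. Row 8134 at ZT22 averaged 342 CPM in cluster 2 and 116 CPM in cluster 1.

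The same comparison was fitted in each cluster alone, a step added after the data were seen. In the main population's clusters, edgeR called 508 rows in cluster 1 (5.55%), 428 in cluster 2 (4.59%), 590 in cluster 3 (6.87%) and 82 in cluster 4 (2.68%). Clusters 2 and 3 take between 11.8% and 33.5% of every library, and their fits hold no cell assigned to clusters 1 and 4. Whether they hold the same kinds of cells in every library was not tested. Of the rows called in the whole table, 350 were called in cluster 2 and 406 in cluster 3.

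Rows were also called for time in the clusters set apart. With 77668 to 467071 UMIs per library, edgeR called 88 rows in cluster 5 (2.47%), 120 in cluster 6 (2.63%) and 55 in cluster 7 (2%). Together these are 156 rows, 74 higher at ZT22 and 82 higher at ZT10. Of them, 116 were called in the same direction in a cluster of the main population, and 0 in the opposite direction. In all 7 clusters at once, 18 rows were called higher at ZT22 and 8 higher at ZT10, out of 2177 rows tested in each of them. Cells of all clusters in a library share 1 preparation, so these are not independent repeats.

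Free RNA from broken cells can carry molecules of the main population into droplets of other cells. The values that bear on it are these. Among nuclear rows over 1000 CPM in the main population, the lowest stood at 17.1% to 34.1% of its main-population level in the cells set apart, depending on the library. The median of these abundant rows stood at 76.4% to 78.6% in the ZT10 libraries and at 63.2% to 71.5% in the ZT22 libraries. Row 9897 stood at 106% to 153% in the 3 ZT22 libraries. Row 11106 stood at 59.5% to 89.4% in the 3 ZT10 libraries, on both sides of that median. Row 8134 stood at 41.4%, 31.9% and 35.0% in ZT22 replicates 1, 2 and 3. The lowest abundant row stood at 26.2%, 28.2% and 34.1% in these libraries. The part of free RNA in the levels of rows 8134, 9897 and 11106 there was not tested. Of the 156 rows called in clusters set apart, 13 were at least 4-fold higher there than in the main population, 5 of them higher at ZT22 and 8 higher at ZT10.

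Row 9897 had a higher mean at ZT22 in each cluster and passed the test in the clusters where it was tested, all but cluster 4. In cluster 5 it was at 161 CPM on average at ZT22 and 5.01 CPM at ZT10, a log2 fold of 4.82 ± 0.44 (SE, edgeR adjusted p = 6.4e-07), where the ZT10 value rests on 4 UMIs. In cluster 3 it was at 101 and 9.59 CPM, a log2 fold of 3.65 ± 0.30 (SE, edgeR adjusted p = 1.4e-05). Row 11106 had a higher mean at ZT10 in each cluster and passed the test in all 7. Its mean levels at ZT10 lay between 95.1 and 151 CPM over the clusters, and those at ZT22 between 9.40 and 30.9 CPM. Neither row was therefore a marker of 1 cluster.

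**Figure D4:**
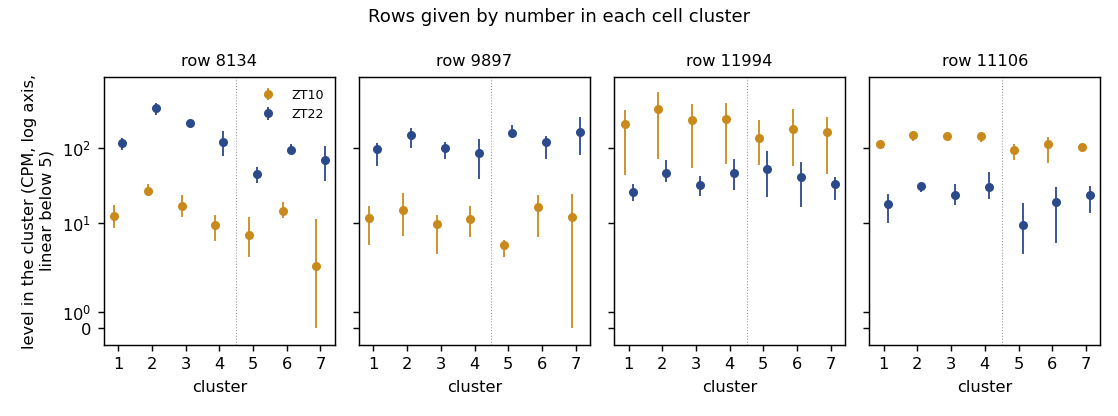
Mean level of the 4 rows given by number in each cluster at ZT10 (ochre) and ZT22 (blue), in CPM on an axis that is logarithmic above 5 and linear below. Bars run from the lowest to the highest of 3 libraries, and clusters right of the dotted line were set apart. Rows 8134, 9897 and 11106 keep apart at the 2 times in all 7 clusters. For row 8134 the ZT10 values of clusters 5 and 7 rest on 6 and 3 UMIs.

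Whole-library sums also hold the rows of the cells set apart, whose share varied between libraries. The 1056 tested rows at least 4-fold higher in the cells set apart had a median log2 fold of 0.53, against -0.03 in the 10859 other rows. Only 14 of them were called, all higher at ZT22, which is 1.33% against 5.25% of the other rows. Restricting the sums to the main population gave 727 calls (6.6%), and 560 of the 584 rows were among them. The part of cell makeup in the 14 rows was not tested.

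Levels of the called rows were also compared between cells of the same library. In each library, cells above its median intronic fraction, a deposited value whose denominator is not stated, were compared with the remaining cells. The rows that fell were higher in the intron-rich cells, with a median log2 ratio of 0.51 (0.32 to 0.66 over the libraries), and 87.2% of them had a ratio above 1. For rows that rose the median was 0.25 (0.08 to 0.47), and for all rows tested it was 0.18 (0.08 to 0.35), with 65.0% above 1 in both. The same contrast by UMIs per cell gave medians of -0.09 for rows that rose, -0.10 for rows that fell and -0.21 for all rows. By mitochondrial percent these were -0.36, -0.43 and -0.47, so rows that rose and fell lay closer together in both than by intronic fraction. The libraries' median intronic fraction was 0.222 ± 0.011 at ZT22 and 0.255 ± 0.038 at ZT10 (SD, n = 3 each, exact permutation p = 0.3). In cells with a fraction under 0.3 alone, 523 rows were called, 260 of them higher at ZT10.

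The mitochondrial rows are the one group of genes that the deposited metadata identify. The deposited mitochondrial percent, rounded to whole UMIs, equals the summed counts of 13 rows in all 31003 cells, which is the number of proteins that the mouse mitochondrial genome encodes, all of them subunits of the respiratory chain and of ATP synthase. Their summed share of UMIs was 7.01%, 17.9% and 12.6% in ZT10 replicates 1, 2 and 3, and 16.9%, 16.8% and 12.1% in the ZT22 replicates. The lowest and the highest value both belong to ZT10, so the groups overlapped. The mean was 15.3% ± 2.72 at ZT22 and 12.5% ± 5.45 at ZT10 (SD, n = 3 each), a difference of 2.79 percentage points with an exact two-sided permutation p of 0.7. Without ZT10 replicate 1 the difference was 0.043 percentage points.

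None of the 13 mitochondrial rows passed the test, in edgeR or in DESeq2, and at an unadjusted p under 0.05 edgeR gave 0 and DESeq2 1. Their fitted log2 folds were all above 0, from 0.21 to 0.87 with a median of 0.43, against 0.0012 for all rows. These rows are parts of the 1 summed share above, so their signs are not 13 separate results. The difference in that share was 0.043 percentage points without ZT10 replicate 1.

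The calls were then set against single libraries. For each library, rows were called from the other 5, and the left-out library was placed by those rows alone. This uses levels that had no part in the choice of the rows. The fits without ZT22 replicates 1, 2 and 3 called 205 (1.67%), 161 (1.33%) and 235 (1.93%) rows. In these, the left-out library lay nearer the mean of its own time than that of the other time in 95.6%, 98.8% and 93.2% of the rows. The ZT22 libraries thus took the place that their label gives.

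At ZT10 the picture was uneven. Without replicates 1 and 2 the fits called 433 (3.57%) and 349 (2.85%) rows, and the left-out library was nearer its own time in 86.1% and 82.5% of them. Without replicate 3, 1040 rows were called (8.62%), and replicate 3 was nearer ZT10 in 56.9%. Its median position was 0.590 on a scale from 0 at the mean of the opposite time to 1 at the mean of the other libraries of its own time, against 0.857 to 1.02 for the other 5 libraries. The code of replicate 3 shares more leading digits with those of the ZT22 libraries than the other ZT10 code does. Whether the code bears on this position was not tested.

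**Figure D5:**
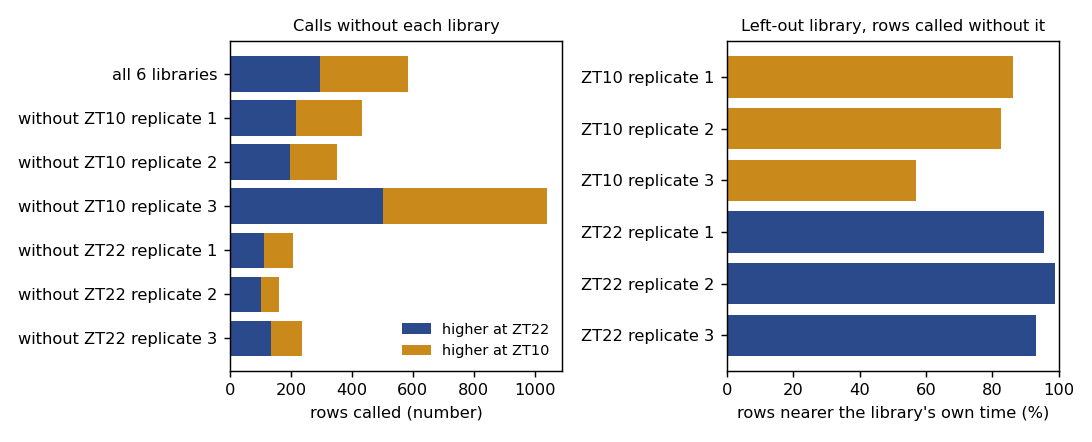
Left, rows called in all 6 female libraries and in the fits that leave out 1 library each, by direction. Right, percent of the rows called without a library in which that library lies nearer its own time: ZT10 replicate 3 is at 56.9%, the other 5 libraries are between 82.5% and 98.8%.

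With ZT10 replicate 3 as the only ZT10 library, which is then assumed to vary like the ZT22 libraries, 466 rows were called, and 300 of them are among the 584. Rows 8134, 9897 and 11106 were among those called. The spread within a time was larger at ZT10. Over 7273 rows with at least 10 CPM, the median coefficient of variation was 13.4% at ZT10 and 9.92% at ZT22, and the ZT10 value was the larger one in 64.7% of the rows. Leaving out any 1 ZT10 library gave medians of 10.7% to 11.2% for the remaining pair. The median coefficient tends to be lower with 2 libraries than with 3, so these values cannot be compared with those above.

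The male samples gave no row whose time difference differed from that in females by the test. The interaction of sex and time called 0 of 12505 rows (0%) in edgeR, with 739 at an unadjusted p under 0.05, and 10 in DESeq2. In the 6 male samples alone, edgeR called 218 rows (1.83%), and 130 of the 584 female rows were among them, all in the same direction. Of the 571 female rows tested in males, 535 had the same sign there, against 59.6% of all rows tested in both sexes. In 5 of the 6 male samples the name code is one that a female library of the same time also carries, so the code cannot be told apart from time here either, and the sexes are not independent of each other in it. Row 8134 went from a mean of 11.7 to 236 CPM in males, and row 9897 from 4.62 to 75.7 CPM. Row 11106 went from 128 to 22.6 CPM. Row 11994, whose call in females rests on the libraries that share a code, went from 94.7 to 20.2 CPM in males, a log2 fold of -2.23 (edgeR adjusted p = 0.016).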

How the data were processed

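Single cells of 12 liver samples were measured, with 1 library in each female sample; male ZT10 replicate 2 has 2 barcode starts, which were summed. The authors deposited raw UMI counts for 18326 numbered rows and 31003 cells. The deposited metadata, per the file headers, also give the counts per cell, an intronic fraction with no stated denominator and the percent of UMIs that are mitochondrial. Cell Ranger 6.1.2, Seurat and mm10 are named in the submitters' processing notes; the annotation and cell filters are not given in the sources used here. Column sums equalled the deposited totals in all 31003 cells, and 0 columns belonged to no sample. Cells were assigned by the sample name in the metadata.

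UMIs of all cells were summed per library. The 6 female libraries were fitted alone in edgeR 4.0.16 (TMM, filterByExpr with a count minimum of 10, quasi-likelihood test, Benjamini-Hochberg over all rows tested, threshold 0.05). Rows left out by the filter hold 0.200% of the UMIs. DESeq2 1.42.0, limma 3.58.1, other filters, scalings, cells and libraries were alternatives. Clusters came from scanpy 1.11.5 and igraph 0.11.9 (2000 variable rows without the mitochondrial ones, 8 components, 15 neighbours, Leiden resolution 0.3). A cluster was set apart where its 10 leading rows had a median fold over 8. Doublets were not called. The rows given by number are the 2 with the largest fold in each direction among called rows whose groups did not overlap and whose higher mean reached 100 CPM. Placement and contrasts within libraries used log2(CPM + 1). The edgeR script was tested on simulated data. The comparison, rules and settings were chosen with earlier results of these data known. Lists of named genes fixed for the liver could not be applied, since no row has a name.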

Additional observations from a re-analysis of the deposited data

How the results depend on the processing

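Across 24 other settings, rows 8134, 9897 and 11106 kept their direction and passed the test, with highest adjusted p-values of 0.0033, 0.016 and 0.0059. Row 11994 kept its direction and was not called in 9. The 584 calls rest on 3 libraries against 3: leaving out 1 library gave 161 to 1040 calls, 100 to 501 higher at ZT22 and 61 to 539 higher at ZT10, with over 1.5 times fewer without ZT10 replicate 2 or any ZT22 replicate and over 1.5 times more without ZT10 replicate 3. With all 12 samples in the fit, 316 rows were called (170 higher and 146 lower at ZT22). With equal weight for each cell, in limma, 160 were higher at ZT22, and the median log2 fold of all rows was -0.07. Cells of cluster 2 alone gave 181 rows higher at ZT10. DESeq2 called 10 rows for the interaction, against 0. The cause of these shifts was not tested. The difference in mitochondrial share lay between 0.043 and 5.49 percentage points without 1 library. Replicate numbers do not pair these libraries: deviations of the same number correlated at 0.31, 0.10 and -0.01, and 1 of 3 ZT22 libraries correlated best with its own number. The replicate block gave 544 calls, 468 of them among the 584, and 0 for the interaction. The SDs given above are over libraries, and the SEs come from the edgeR fits.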
